A study of Saccharomyces cerevisiae with 64 samples.

Results

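The genes of sulfur and methionine metabolism in budding yeast, Saccharomyces cerevisiae, were followed here in G1-arrested cells that overexpressed a forkhead transcription factor. The set holds 36 genes out of 6931 entries of the RNA table, listed by name for their place in sulfate assimilation, methionine and cysteine synthesis, transport or regulation. The list uses no cut on measured values, but it was drawn up with earlier results of these data known. All 36 were found, each as an entry of its own. Cells of 3 groups were compared: Fkh2 OE (Fkh2 overexpressed), Fkh1 OE (Fkh1 overexpressed) and no OE (wild-type cells with the galactose promoter, pGAL, alone), with 2 RNA libraries each. All 3 groups were grown in rich medium with raffinose, blocked in G1 with 7.5 nM α-factor, the mating pheromone, for 3 h at 25 °C, and then kept in 2% galactose with α-factor for 2 h, so the controls received the inducing sugar too. The genotype beyond these terms, such as a mating-type protease deletion or nutritional markers, is not stated in the labels. The series also measured DNA replication by incorporation of bromodeoxyuridine (BrdU), a thymidine analogue. For this, 58 of its 64 libraries hold DNA, either a BrdU immunoprecipitate (IP) or the total DNA used as its input. Those libraries came from cells released into 0.2 M hydroxyurea or pulsed without drug. They cover Fkh1 OE and no OE cells, Fkh2 OE cells in hydroxyurea only, and RNR3 OE cells with their own no OE control. Others came from cells deleted for FKH1 and FKH2, with ARS305 in place of ARS501, with and without Fkh1 OE.

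Yeast takes up sulfate, activates it and reduces it in steps to sulfide, which is joined to a carbon backbone derived from aspartate to give homocysteine and then methionine. Homocysteine and cysteine are exchanged through the transsulfuration enzymes, and methionine is turned into S-adenosylmethionine, the methyl donor of the cell. Most genes of the pathway are activated by Met4, which has no DNA-binding activity of its own and is brought to promoters by Cbf1 or by Met31 and Met32, with Met28 as a partner. The ubiquitin ligase that carries Met30 holds Met4 inactive when sulfur amino acids are plentiful, and the general amino acid control factor Gcn4 acts on some of the same genes.

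The RNA level of a gene is given in FPKM, fragments counted per length of transcript and per depth of library, which allows levels to be compared between genes. The authors deposited 1 FPKM value per gene and group, so that no spread between libraries, no standard deviation and no overlap between groups can be given, and depth per library is unknown. Folds below were computed as ratios of these values with nothing added, and are not the deposited folds; where a sentence names the authors' deposited table, the q is the value taken from it. "Rose", "fell", "higher" and "lower" are used of a gene's RNA only where the q-value (a p-value adjusted for multiple tests) in the authors' deposited table was below 0.05. No label says that the 2 libraries of a group were separate cultures, so the q-values may measure technical spread only. In these bulk samples, a change in all cells and a change in some cells cannot be told apart.

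The overexpressed genes were examined first. FKH2 had 2220 FPKM in Fkh2 OE, 13.3 in Fkh1 OE and 14.3 in no OE, and FKH1 had 8.23 FPKM in Fkh2 OE, 1458 in Fkh1 OE and 20.9 in no OE. FKH1 thus fell 2.54-fold with Fkh2 OE against no OE (q = 0.000327 in the authors' deposited table). The 4 galactose genes GAL1, GAL2, GAL7 and GAL10 summed to 22013 FPKM in Fkh2 OE, 24491 in Fkh1 OE and 23079 in no OE. Of the genes that mark MATa cells, BAR1 was listed at 0 in all 3 groups. STE2 had 3823, 4609 and 3414 FPKM in Fkh2 OE, Fkh1 OE and no OE. In that order MFA1 had 45423, 121428 and 47681 FPKM, and MFA2 had 31690, 150574 and 53144 FPKM. With Fkh1 OE against no OE, MFA1 rose 2.55-fold and MFA2 2.83-fold (q = 0.000327 for both in the authors' deposited table). MFA2 fell with Fkh2 OE against no OE (q = 0.00214 in the authors' deposited table). Of the 5 genes of the α-factor response, FIG1 had 662 FPKM in Fkh2 OE, 1704 in Fkh1 OE and 1477 in no OE, and FUS1 had 269, 464 and 434 FPKM in the same order. Both fell with Fkh2 OE against no OE in the authors' deposited table (FIG1, q = 0.000327; FUS1, q = 0.00538), while AGA1, PRM1 and FUS2 did not pass. The 5 genes summed to 3859 FPKM in Fkh2 OE, 5737 in Fkh1 OE and 5503 in no OE. CLB2, a mitotic cyclin gene, had 22.8 FPKM in Fkh2 OE, 14.3 in Fkh1 OE and 12.8 in no OE. It rose with Fkh2 OE against no OE (q = 0.00415 in the authors' deposited table). CLN2, CLB5 and CDC20, the others listed here as signs of cells past the α-factor block, did not pass. These 4 genes summed to 98.4 FPKM in Fkh2 OE, 97.6 in Fkh1 OE and 105 in no OE. The 3 genes that mark MATalpha cells summed to 35.8, 31.2 and 27.1 FPKM in that order, with MF(ALPHA)1 listed at 0 in no OE. Among them STE3 rose with Fkh2 OE against no OE (q = 0.00116 in the authors' deposited table), with 13.9 FPKM against 5.63. MF(ALPHA)1, at 2.33 FPKM in Fkh1 OE, passed with Fkh1 OE against no OE (q = 0.0147 in the authors' deposited table). The part of these shifts in the changes of the sulfur genes was not tested. The sum over all entries was 1750572 FPKM in Fkh2 OE, 2162811 in Fkh1 OE and 1777335 in no OE.

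With Fkh2 OE against no OE, 11 of the 35 tested members rose and 4 fell. Among all 6208 entries tested in that comparison, 13.7% rose and 17.0% fell, against 31.4% and 11.4% of the members. With Fkh1 OE against no OE, 3 of 35 members rose and 0 fell, beside 5.59% and 5.39% of 6212 entries, and at an unadjusted p below 0.05 in the authors' deposited table (Cuffdiff) the counts were 6 and 0, beside 9.27% and 8.98% of entries. Between the 2 overexpression groups, 9 of 35 members were higher in Fkh2 OE than in Fkh1 OE and 6 were lower, beside 7.24% and 11.7% of 6227 entries. Of the 35, 19 passed in at least 1 comparison and 16 in none, a count that was not made over all entries. These comparisons share groups, so their counts are not separate evidence.

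**Figure D1:**
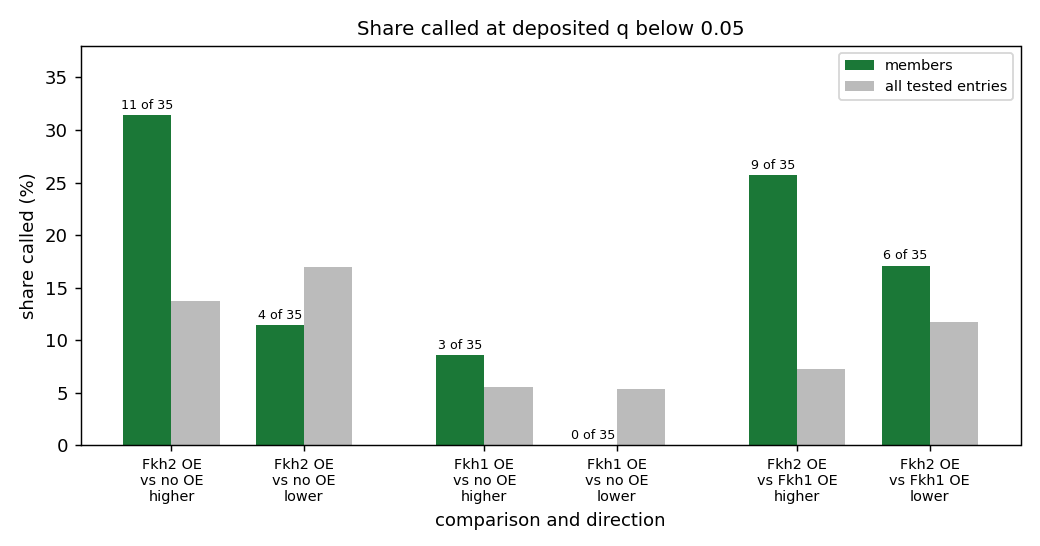
Share of the 35 tested members (green) and of all tested entries (grey) that were called higher or lower at a deposited q below 0.05, in percent, for each comparison. The members' bar is above that of all entries for rises with Fkh2 OE against no OE, 31.4% beside 13.7%, and for genes higher in Fkh2 OE than in Fkh1 OE, 25.7% beside 7.24%. It is also above for genes lower in Fkh2 OE than in Fkh1 OE, 17.1% beside 11.7%, and for rises with Fkh1 OE, 8.57% beside 5.59%. It is below for falls against no OE, 11.4% beside 17.0% with Fkh2 OE and 0% beside 5.39% with Fkh1 OE.

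The median log2 fold of the tested members was 0.14 with Fkh2 OE against no OE, beside -0.03 over all entries with a fold. It was 0.09 with Fkh1 OE against no OE, beside 0.00, and 0.13 for Fkh2 OE against Fkh1 OE, beside -0.04. The members were spread widely around these medians. With Fkh2 OE against no OE they ran from -1.14 for CBF1 to 1.88 for YCT1, with 19 above 0 and 16 below. With Fkh1 OE against no OE they ran from -0.36 for MET32 to 0.83 for HOM3.

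**Figure D2:**
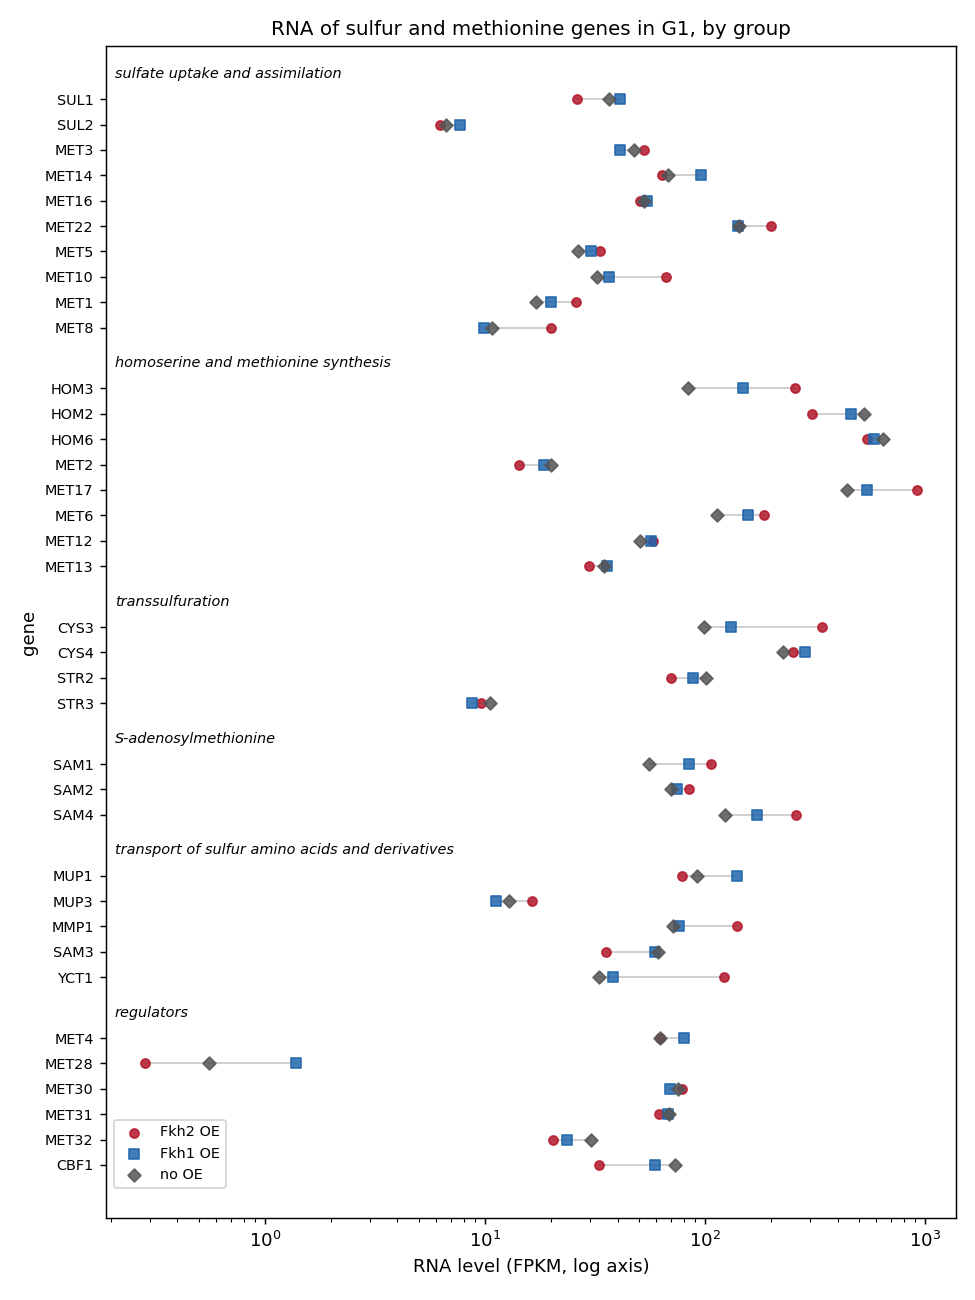
RNA level of each of the 36 members in FPKM on a log axis, grouped by role; circles are Fkh2 OE, squares Fkh1 OE and diamonds no OE, each the authors' single value for that group. CYS3, YCT1, HOM3 and MET17 show Fkh2 OE far to the right of no OE, CBF1 shows it to the left, and MET28 is near or below 1 FPKM in every group.

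**Figure D3:**
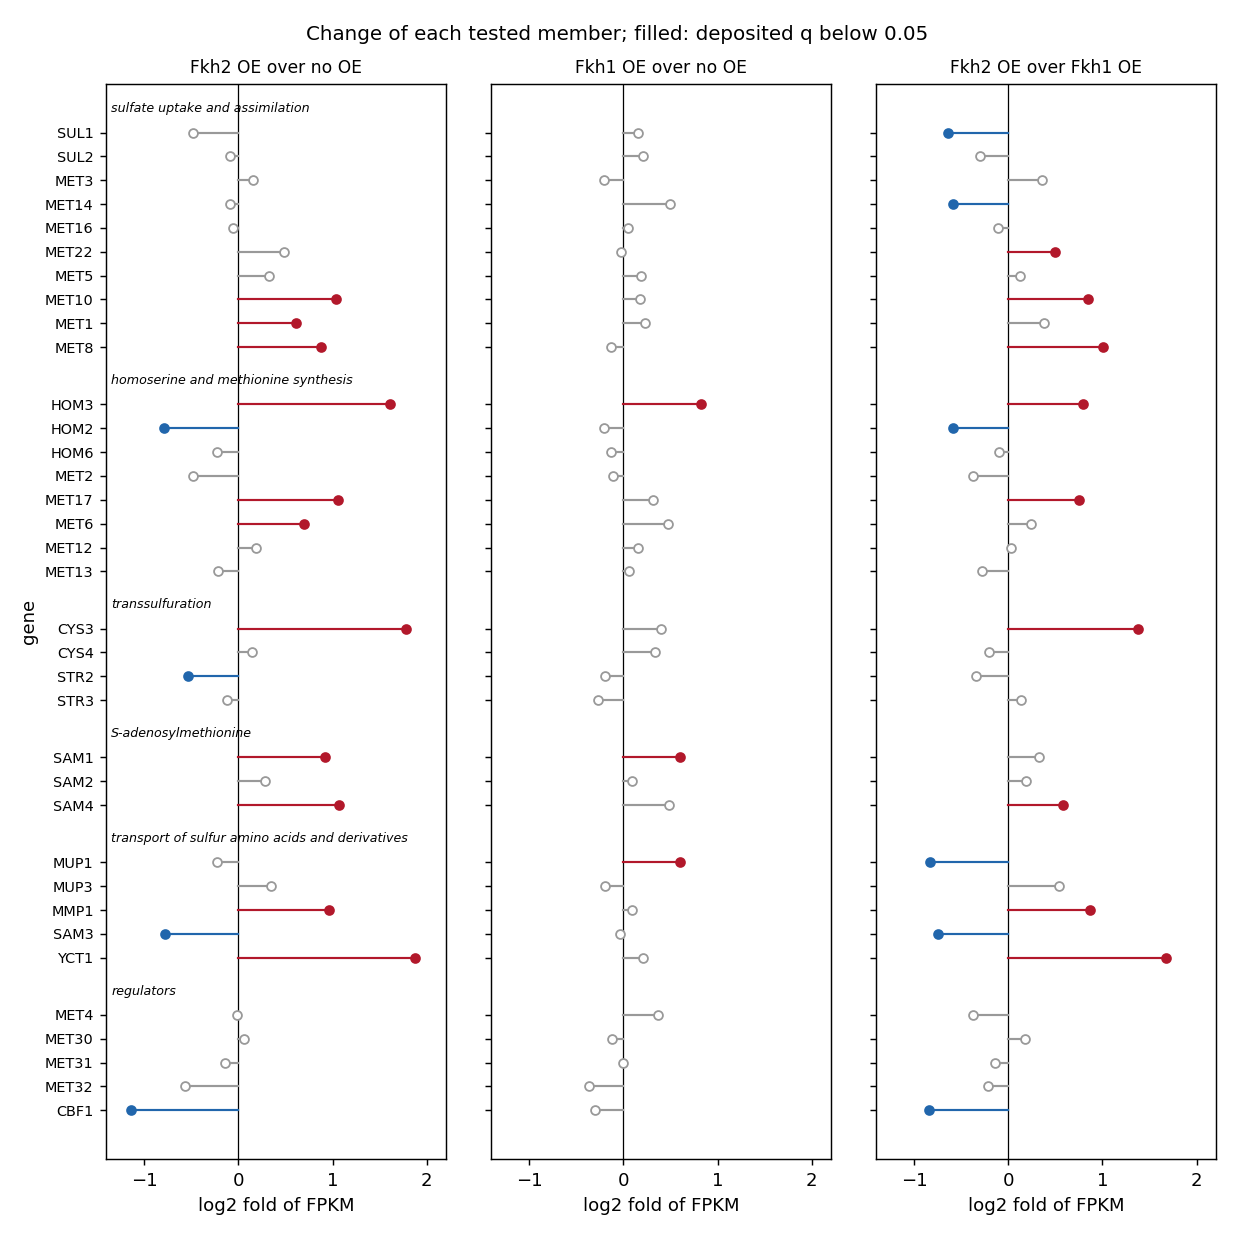
Log2 fold of FPKM of the 35 tested members for Fkh2 OE over no OE, Fkh1 OE over no OE and Fkh2 OE over Fkh1 OE, grouped by role. Filled points passed a deposited q below 0.05, red for higher and blue for lower, and open points did not pass.

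Counts by role are of few genes, beside 13.7% of all entries that rose and 17.0% that fell with Fkh2 OE against no OE. Sulfate uptake and reduction to sulfide take up 10 members. With Fkh2 OE against no OE, 3 of them rose, 0 fell and 7 did not pass, and all 3 act at or around sulfite reductase, the last reducing step. MET10, the alpha subunit of that enzyme, had 66.2 FPKM in Fkh2 OE, 36.6 in Fkh1 OE and 32.2 in no OE. In Fkh2 OE it was 2.05-fold above no OE and 1.81-fold above Fkh1 OE (q = 0.000327 for both in the authors' deposited table). MET8, which completes siroheme, the prosthetic group of sulfite reductase, had 19.9 FPKM in Fkh2 OE, 9.88 in Fkh1 OE and 10.8 in no OE. It was 1.84-fold higher in Fkh2 OE than in no OE (q = 0.0167) and 2.02-fold higher than in Fkh1 OE (q = 0.00964), both in the authors' deposited table. MET1, the methyltransferase that starts siroheme synthesis from its precursor, had 26.0 FPKM in Fkh2 OE, 20.0 in Fkh1 OE and 17.0 in no OE. Its 1.53-fold rise with Fkh2 OE against no OE passed (q = 0.023 in the authors' deposited table), and its difference between the overexpression groups did not (q = 0.187). MET5, the beta subunit of sulfite reductase, had 33.2 FPKM in Fkh2 OE, 30.3 in Fkh1 OE and 26.5 in no OE, and passed in no comparison.

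The earlier steps of the same branch passed in neither comparison with no OE. MET3, ATP sulfurylase, had 52.9 FPKM in Fkh2 OE, 41.2 in Fkh1 OE and 47.6 in no OE. MET14, which phosphorylates the activated sulfate, had 64 FPKM in Fkh2 OE, 96.3 in Fkh1 OE and 68.1 in no OE, and was 1.51-fold lower in Fkh2 OE than in Fkh1 OE (q = 0.0478 in the authors' deposited table). MET16, the reductase that forms sulfite, had 50.7 FPKM in Fkh2 OE, 54.7 in Fkh1 OE and 52.8 in no OE, nearly level across the groups. MET22, a phosphatase that removes a by-product of this reduction, had 199 FPKM in Fkh2 OE, 141 in Fkh1 OE and 143 in no OE. Its 1.42-fold difference between Fkh2 OE and Fkh1 OE passed (q = 0.0426), and that against no OE, 1.39-fold, lay just outside (q = 0.0503, both in the authors' deposited table). The calls of MET14 and MET22 were lost when the deposited p-values were adjusted over all tested entries of the 3 comparisons, at an adjusted 0.0771 and 0.0694.

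The sulfate permeases were the other end of this branch. SUL1 had 26.3 FPKM in Fkh2 OE, 41.0 in Fkh1 OE and 36.7 in no OE. It was 1.56-fold lower in Fkh2 OE than in Fkh1 OE (q = 0.0107), while the difference from no OE did not pass (q = 0.0535, both in the authors' deposited table). SUL2 was low throughout, with 6.25 FPKM in Fkh2 OE, 7.71 in Fkh1 OE and 6.67 in no OE. Over the 10 members, summed FPKM was 545 in Fkh2 OE, 478 in Fkh1 OE and 441 in no OE.

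Homoserine and methionine synthesis take up 8 members, of which 3 rose, 1 fell and 4 did not pass with Fkh2 OE against no OE. The first enzymes of the aspartate branch went in opposite directions. HOM3, the aspartate kinase that opens the route to both methionine and threonine (chromosome V 256375 to 257958, build R64), had 255 FPKM in Fkh2 OE, 148 in Fkh1 OE and 83.4 in no OE, an order in which each group differed from the next. It was 3.06-fold higher in Fkh2 OE than in no OE (q = 0.000327), 1.77-fold higher in Fkh1 OE than in no OE (q = 0.000327) and 1.73-fold higher in Fkh2 OE than in Fkh1 OE (q = 0.000894), all in the authors' deposited table. HOM2, aspartate semialdehyde dehydrogenase, the next enzyme, had 306 FPKM in Fkh2 OE, 459 in Fkh1 OE and 527 in no OE. It was 1.72-fold lower in Fkh2 OE than in no OE (q = 0.000327) and 1.5-fold lower than in Fkh1 OE (q = 0.0175), both in the authors' deposited table. HOM6, homoserine dehydrogenase, had 546 FPKM in Fkh2 OE, 586 in Fkh1 OE and 642 in no OE, and passed in no comparison.

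Sulfide enters the carbon backbone at MET17, O-acetylhomoserine sulfhydrylase, the most abundant member in Fkh2 OE. It had 918 FPKM in Fkh2 OE, 544 in Fkh1 OE and 440 in no OE. It was 2.09-fold higher in Fkh2 OE than in no OE (q = 0.000327) and 1.69-fold higher than in Fkh1 OE (q = 0.00116), and its 1.24-fold difference between Fkh1 OE and no OE did not pass (q = 0.254, all in the authors' deposited table). MET17 spans the same stretch of the table as YLR302C, which overlaps it, but YLR302C was listed at 4.32 FPKM in Fkh2 OE, 5.29 in Fkh1 OE and 3.23 in no OE. MET6, the methionine synthase that needs no cobalamin, had 185 FPKM in Fkh2 OE, 157 in Fkh1 OE and 113 in no OE, and rose 1.63-fold with Fkh2 OE against no OE (q = 0.0035 in the authors' deposited table). With Fkh1 OE it stood 1.38-fold above no OE, outside the threshold (q = 0.0705 in the authors' deposited table).

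The remaining genes of this branch passed in no comparison. MET2, the acetyltransferase that prepares homoserine for sulfide, had 14.3 FPKM in Fkh2 OE, 18.5 in Fkh1 OE and 19.9 in no OE, and overlaps YNL276C, listed at similar levels, so its reads are uncertain. MET12 and MET13 are the methylenetetrahydrofolate reductases that supply the methyl group. MET12 had 57.8 FPKM in Fkh2 OE, 56.6 in Fkh1 OE and 50.8 in no OE, and MET13 had 29.7, 36.0 and 34.6 FPKM in the same order. Summed over the 8 members, FPKM was 2312 in Fkh2 OE, 2005 in Fkh1 OE and 1911 in no OE.

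Transsulfuration runs both ways in yeast, and of its 4 members 1 rose, 1 fell and 2 did not pass with Fkh2 OE against no OE. CYS3, cystathionine gamma-lyase, which makes cysteine from cystathionine (chromosome I 130799 to 131983), had 341 FPKM in Fkh2 OE, 131 in Fkh1 OE and 99.3 in no OE. It was 3.43-fold higher in Fkh2 OE than in no OE and 2.60-fold higher than in Fkh1 OE (q = 0.000327 for both in the authors' deposited table). Among the 6151 tested entries with a fold, CYS3 ranked 40 by rise with Fkh2 OE against no OE. CYS4, cystathionine beta-synthase, which feeds it, had 250 FPKM in Fkh2 OE, 286 in Fkh1 OE and 227 in no OE, and did not pass. STR2, cystathionine gamma-synthase, which works in the reverse direction, had 70.1 FPKM in Fkh2 OE, 88.5 in Fkh1 OE and 101 in no OE. It fell 1.44-fold with Fkh2 OE against no OE (q = 0.0363 in the authors' deposited table), a call lost, at an adjusted 0.0604, when the p-values were adjusted over all tested entries of the 3 comparisons. STR3, cystathionine beta-lyase of the same reverse route, had 9.62 FPKM in Fkh2 OE, 8.70 in Fkh1 OE and 10.5 in no OE.

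S-adenosylmethionine metabolism has 3 members, and 2 of them rose with Fkh2 OE against no OE. SAM1, an S-adenosylmethionine synthetase, had 106 FPKM in Fkh2 OE, 84.3 in Fkh1 OE and 55.8 in no OE. It was 1.90-fold higher in Fkh2 OE (q = 0.000327) and 1.51-fold higher in Fkh1 OE (q = 0.0144) than in no OE in the authors' deposited table. The Fkh1 OE call was lost, at an adjusted 0.0592, when the p-values of that comparison were adjusted anew over its own entries. The near-identical paralogue SAM2 had 84.8 FPKM in Fkh2 OE, 74.4 in Fkh1 OE and 70.1 in no OE, and did not pass. The labels do not say how reads shared by the pair were assigned, so their split is uncertain. SAM4, which recycles S-adenosylmethionine with homocysteine to methionine, had 258 FPKM in Fkh2 OE, 172 in Fkh1 OE and 123 in no OE. It was 2.1-fold higher in Fkh2 OE than in no OE (q = 0.000327) and 1.5-fold higher than in Fkh1 OE (q = 0.0155), and the 1.40-fold difference of Fkh1 OE from no OE did not pass (q = 0.0524, all in the authors' deposited table).

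Transport of sulfur compounds has 5 members, of which 2 rose, 1 fell and 2 did not pass with Fkh2 OE against no OE. YCT1, a cysteine transporter (chromosome XII 30109 to 31704), had 122 FPKM in Fkh2 OE, 38.3 in Fkh1 OE and 33.1 in no OE, with Fkh1 OE close to no OE. It was 3.67-fold higher in Fkh2 OE than in no OE and 3.17-fold higher than in Fkh1 OE (q = 0.000327 for both in the authors' deposited table), and ranked 30 of 6151 by rise with Fkh2 OE against no OE. MMP1, the S-methylmethionine permease, had 139 FPKM in Fkh2 OE, 76.2 in Fkh1 OE and 71.4 in no OE. It was 1.95-fold above no OE and 1.83-fold above Fkh1 OE in Fkh2 OE (q = 0.000327 for both in the authors' deposited table). SAM3, the S-adenosylmethionine permease, went the other way, with 35.4 FPKM in Fkh2 OE, 59.5 in Fkh1 OE and 61.0 in no OE. It was 1.72-fold lower in Fkh2 OE than in no OE (q = 0.000619) and 1.68-fold lower than in Fkh1 OE (q = 0.00166) in the authors' deposited table.

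The methionine permeases differed from these. MUP1, the high-affinity permease, had 78.7 FPKM in Fkh2 OE, 140 in Fkh1 OE and 92.1 in no OE, with the highest value in Fkh1 OE. It was 1.51-fold higher in Fkh1 OE than in no OE (q = 0.0132) and 1.77-fold lower in Fkh2 OE than in Fkh1 OE (q = 0.000619), and the difference of Fkh2 OE from no OE did not pass (q = 0.431, all in the authors' deposited table). MUP3, a low-affinity permease, had 16.3 FPKM in Fkh2 OE, 11.2 in Fkh1 OE and 12.8 in no OE, and did not pass. Of the 3 members that rose with Fkh1 OE against no OE, only HOM3 stayed below 0.05 when the p-values of that comparison were adjusted anew over its 6212 entries. MUP1 then had 0.0556. When the p-values were adjusted over all tested entries of the 3 comparisons, all 3 members stayed below 0.05.

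Of the 5 regulators that could be tested, 0 rose and 1 fell with Fkh2 OE against no OE, beside 13.7% and 17.0% of all entries. CBF1, a factor that binds centromeres as well as sulfur gene promoters (chromosome X 548759 to 549814), had 33.0 FPKM in Fkh2 OE, 59.2 in Fkh1 OE and 72.9 in no OE. It was 2.21-fold lower in Fkh2 OE than in no OE (q = 0.000327) and 1.79-fold lower than in Fkh1 OE (q = 0.000619), and its log2 fold of -0.30 for Fkh1 OE over no OE did not pass (q = 0.297, all in the authors' deposited table). MET4, the activator itself, had 62.2 FPKM in Fkh2 OE, 80.6 in Fkh1 OE and 62.5 in no OE. Its log2 folds were -0.01 for Fkh2 OE over no OE, 0.37 for Fkh1 OE over no OE and -0.37 for Fkh2 OE over Fkh1 OE, and none passed (q = 0.987, 0.165 and 0.155 in the authors' deposited table). MET31, a zinc-finger partner, had 61.9 FPKM in Fkh2 OE, 68.2 in Fkh1 OE and 68.3 in no OE. MET31 had log2 folds of -0.14 and -0.00 against no OE for Fkh2 OE and Fkh1 OE and -0.14 between them (q = 0.737, 0.993 and 0.74 in the authors' deposited table). MET32, its close relative, had 20.4 FPKM in Fkh2 OE, 23.5 in Fkh1 OE and 30.2 in no OE. The log2 folds of MET32 were -0.57 and -0.36 against no OE for Fkh2 OE and Fkh1 OE and -0.21 between them (q = 0.163, 0.404 and 0.684 in the authors' deposited table). MET30, the subunit that recognises Met4 for ubiquitination, had 78.2 FPKM in Fkh2 OE, 69.1 in Fkh1 OE and 75.1 in no OE, with log2 folds of 0.06, -0.12 and 0.18 in the same order of comparisons (q = 0.872, 0.714 and 0.555 in the authors' deposited table).

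MET28 could not be read. It was listed at 0.285 FPKM in Fkh2 OE, 1.38 in Fkh1 OE and 0.558 in no OE, and was not tested by the authors. Its entry covers the same stretch as YIR017W-A, an overlapping reading frame (chromosome IX 383556 to 384165), which had 146 FPKM in Fkh2 OE, 206 in Fkh1 OE and 262 in no OE. The YIR017W-A entry was 1.79-fold lower in Fkh2 OE than in no OE (q = 0.000327 in the authors' deposited table). The labels do not state whether counting used the strand, so which of the 2 genes these reads came from cannot be told.

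Some neighbouring genes differed in their response. SAM3 and SAM4, separated by 385 bp on chromosome XVI, went in opposite directions with Fkh2 OE, as given above. Near the left end of chromosome XII, MHT1, MMP1, YLL058W, JLP1 and YCT1 lie within 15066 bp. MHT1, an S-methylmethionine homocysteine methyltransferase 342 bp from MMP1, had 14.0 FPKM in Fkh2 OE, 13.9 in Fkh1 OE and 15.8 in no OE and did not pass, although MMP1 rose. YLL058W and JLP1, which lie between MMP1 and YCT1, did not pass either.

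Other genes of sulfur metabolism, 38 in a list of their own of which 37 were tested, gave 7 higher and 3 lower with Fkh2 OE against no OE, or 18.9% and 8.11%, beside 13.7% and 17.0% of all entries. With Fkh1 OE against no OE 1 was higher and 2 were lower, or 2.70% and 5.41%, beside 5.59% and 5.39%. For Fkh2 OE against Fkh1 OE 4 were higher and 2 lower, or 10.8% and 5.41%, beside 7.24% and 11.7%. ARO8, an aminotransferase that can close the methionine salvage cycle, had 405 FPKM in Fkh2 OE, 228 in Fkh1 OE and 199 in no OE, and rose 2.03-fold with Fkh2 OE against no OE (q = 0.000327 in the authors' deposited table). Its paralogue ARO9 had 43.4 FPKM in Fkh2 OE, 90.1 in Fkh1 OE and 128 in no OE, and fell 2.95-fold (q = 0.000327 in the authors' deposited table). Against Fkh1 OE, ARO8 was 1.77-fold higher and ARO9 2.07-fold lower in Fkh2 OE (q = 0.000327 for both in the authors' deposited table).

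In the salvage of methylthioadenosine, MEU1 and MRI1 rose and UTR4 fell with Fkh2 OE against no OE, while MDE1 and ADI1 did not pass (q = 0.239 and 0.0692 in the authors' deposited table). MEU1, its phosphorylase, had 102 FPKM in Fkh2 OE, 65.7 in Fkh1 OE and 60.9 in no OE, and MRI1, the isomerase that follows, had 225, 149 and 141 FPKM in that order. Both rose with Fkh2 OE against no OE, 1.67-fold and 1.60-fold (q = 0.00328 and 0.00393), and against Fkh1 OE, 1.55-fold and 1.51-fold (q = 0.00888 and 0.0154, all in the authors' deposited table). UTR4, an enzyme later in the cycle, had 61.7 FPKM in Fkh2 OE, 85.9 in Fkh1 OE and 128 in no OE. UTR4 fell 2.07-fold with Fkh2 OE (q = 0.000327) and 1.49-fold with Fkh1 OE (q = 0.0296) against no OE in the authors' deposited table.

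IRC7, a beta-lyase that releases sulfide from cysteine, had 55.0 FPKM in Fkh2 OE, 37.5 in Fkh1 OE and 30.1 in no OE. In Fkh2 OE it was 1.83-fold above no OE (q = 0.00166) and 1.47-fold above Fkh1 OE (q = 0.0458) in the authors' deposited table. TRR1, thioredoxin reductase, had 430 FPKM in Fkh2 OE, 350 in Fkh1 OE and 262 in no OE, and SHM2, a serine hydroxymethyltransferase of the folate cycle, had 177, 144 and 117 FPKM. They rose 1.64-fold and 1.51-fold with Fkh2 OE against no OE (q = 0.00214 and 0.0144 in the authors' deposited table). CDC34, the ubiquitin-conjugating enzyme that works with the Met30 ligase and others like it, had 198 FPKM in Fkh2 OE, 326 in Fkh1 OE and 351 in no OE. It was 1.77-fold lower in Fkh2 OE than in no OE (q = 0.000327) and 1.65-fold lower than in Fkh1 OE (q = 0.00237), both in the authors' deposited table. SAH1, S-adenosylhomocysteine hydrolase, rose 1.5-fold with Fkh1 OE (q = 0.0175 in the authors' deposited table), with 216 FPKM in Fkh1 OE against 144 in no OE. MXR1, a methionine sulfoxide reductase, had 174 FPKM in Fkh1 OE against 290 in no OE, 1.66-fold lower (q = 0.0026 in the authors' deposited table). GCN4 RNA did not pass in any comparison, with 1923 FPKM in Fkh2 OE, 1976 in Fkh1 OE and 2141 in no OE; this factor is known to be controlled mainly at translation.

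Of the genes used as nutritional markers in laboratory strains, LYS2, a lysine biosynthesis gene outside sulfur metabolism, also rose with Fkh2 OE. It had 114 FPKM in Fkh2 OE, 66.1 in Fkh1 OE and 47.8 in no OE. Its ratio of Fkh2 OE to no OE was 2.39, with q = 0.000327 in the authors' deposited table. Of the others in that list, MET17 passed as given above, and URA3, LEU2, TRP1 and ADE2 did not. HIS3 has no entry of its own, since the table merges it with DED1 and YOR203W, so it was not read.

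The same loci were read in the replication tables, in which 1 combined BrdU column per group gives signal in bins of 50 bp, in relative units with no replicate and no test. Signal was averaged over the bins inside each gene. In cells released for 60 min into 0.2 M hydroxyurea with 400 µg/mL BrdU, which stops replication forks close to early origins, the median over the 36 members was 0.00458 in Fkh2 OE, 0.00612 in Fkh1 OE and 0.00452 in no OE. The median over 6002 genes was 0.00467, 0.00620 and 0.00440 in that order, so the members as a set were near the middle of the genome. MET5 carried the most signal of the members, with 0.0484 in Fkh2 OE, 0.120 in Fkh1 OE and 0.160 in no OE. It was followed in no OE by MET3, with 0.0169, 0.0401 and 0.0363 in Fkh2 OE, Fkh1 OE and no OE, and by SAM1, with 0.0105, 0.0290 and 0.0231. MET10 had the largest ratio of Fkh1 OE to no OE among the members, 4.69, with 0.0257 in Fkh1 OE and 0.00549 in no OE, and 0.00545 in Fkh2 OE. The median of that ratio was 1.30 over the members and 1.37 over all genes. It was at least 2 for 3 of the 36 members, beside 12.1% of all genes.

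Without drug and with 800 µg/mL BrdU, the median member signal in the pulse from 20 to 35 min after release was 0.0165 in Fkh1 OE and 0.00794 in no OE, beside 0.0235 and 0.00859 over all genes. From 30 to 45 min it was 0.113 in Fkh1 OE and 0.0559 in no OE, beside 0.152 and 0.0676, and from 40 to 55 min 0.238 and 0.244, beside 0.239 and 0.243. MET5, HOM6, SAM1, MET3 and MET17 had the highest signal of the members in the first pulse, at 0.531, 0.336, 0.302, 0.238 and 0.258 in Fkh1 OE and 0.406, 0.221, 0.173, 0.118 and 0.109 in no OE. CYS3 had 0.0981 in Fkh1 OE and 0.0205 in no OE in that pulse, and YCT1 0.0164 and 0.00590. MET32 stayed low to the last pulse, with 0.0965 in Fkh1 OE and 0.0424 in no OE. No label says whether columns of 1 table share a scale of amount. The RNA was taken before release, so these values describe the position of the members in S phase and not their RNA.

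**Figure D4:**
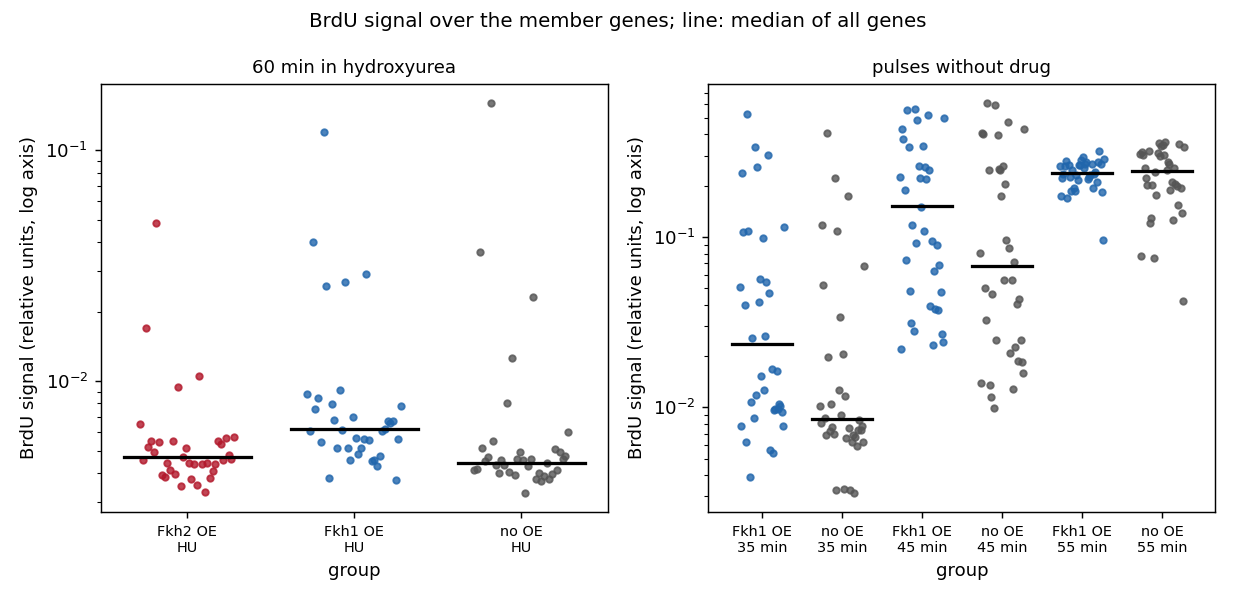
BrdU signal averaged over each of the 36 member genes, in relative units on a log axis, in hydroxyurea (left) and in 3 pulses without drug (right); points are genes and black lines are medians of 6002 genes. The members scatter around the genome median in each group, with MET5 highest in hydroxyurea.

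In the 2 other replication tables the median of the members was near that of all genes. With RNR3 overexpressed, a subunit of ribonucleotide reductase, the median member signal in hydroxyurea was 0.154, against 0.160 in the no OE control of that experiment, beside 0.150 and 0.158 over all genes. In cells deleted for FKH1 and FKH2 that also carry origin ARS305 in place of ARS501, the median of 34 members was 0.00588 with Fkh1 OE and 0.00756 without it, beside 0.00594 and 0.00810 over 5420 genes. HOM3 and MET6 were left out there, since chromosome V has another length in that table.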

How the data were processed

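For each gene of the G1 RNA table the authors deposited 1 FPKM value per group. The p-values and q-values of 3 pairwise comparisons were deposited beside them. Its header is that of a Cuffdiff table, and the submitters' processing notes name TopHat2, Cufflinks, Cuffdiff and build R64. BrdU signal was deposited by the authors as combined values per group in 50 bp bins, and Bowtie2, SAMtools and bedtools are named in those notes. Scaling, strand use and the set of tests behind the q-values are not stated in the labels. Depth per library is unknown.

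Folds were recomputed from FPKM with no pseudocount, and the deposited fold column was not used. The calls are the authors' own at q below 0.05, and counts of members were read beside the share of all entries called. All 36 members were matched to the R64 gene table, which supplied their coordinates and locus tags. All of them were named with their levels; folds and q were given for members that passed and for every regulator that was tested, all but MET28, and of the other sulfur genes for at most 6 per direction. The members and lists were chosen with earlier results of these data known. The adjustment step was tested on simulated data, with a simple count of planted rises and falls. The count of the members itself was not tested in this way. Python 3.11.15 was used with pandas 2.3.3, numpy 2.4.6 and matplotlib 3.10.9. Columns of single samples left unmatched numbered 0. Promoter and protein sequences were not used here.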

Additional observations from a re-analysis of the deposited data

How the results depend on the processing

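With Fkh2 OE against no OE, 11 members were higher and 4 lower. Under 9 other settings the counts ran from 9 to 12 and from 3 to 5. These were a stricter or looser q, a fold minimum, and FPKM floors with new adjustment. Further ones were entries with several names left out, recentring of the median, adjustment over all 3 comparisons, and overlapping entries left out. Leaving out entries with several names could not change the counts, since each member has its own entry. Recentring left the q-values as they were. The floor of 1 FPKM removed none of the 6208 entries, so only the adjustment differed there. The count of members higher with Fkh1 OE against no OE was 3. It was 1 at q below 0.01, 5 at q below 0.10, and 1 when entries of at least 1 FPKM or of at least 10 FPKM were adjusted anew. Members lower in Fkh2 OE than in Fkh1 OE numbered 6, and 3 at q below 0.01. The share of all entries called in each comparison was not counted at these other settings. Whether the members moved more than the rest is therefore not known. Adjustment over the 18647 tests of the 3 comparisons, chosen after seeing the data, ended the calls of STR2 (log2 fold -0.53), MET14 (-0.59) and MET22 (0.50). No direction turned under any setting, but each setting took the direction of a call from the same group FPKM values. That outcome was largely fixed in advance and is no added support. The median fold of BrdU signal over the members from 20 to 35 min, Fkh1 OE over no OE, was 1.73 with the mean and 2.01 with the median over a gene's bins, and the cause was not tested; over all genes the median with the mean over bins was 2.31. No paired analysis was possible because the table holds no values per library, and for the same reason leaving out a replicate was not run. The shares of promoter motifs were not run, since no promoter sequences were used here.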

Other observations

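The deposited q-values are lower than a Benjamini-Hochberg adjustment of the deposited p-values over the listed tests would give. Across the 3 comparisons the table lists 18647 tests, of which 3768 have a deposited q below 0.05. Adjusting the same p-values over all of them leaves 3160 below 0.05, so 608 calls rest on the deposited adjustment. The smallest p in the table is 5.0e-05, shared by 1146 tests, and the smallest q is 0.000327, against 0.000814 when adjusted over the listed tests. Members printed with q = 0.000327 are at this floor and cannot be ranked by it. The labels do not say over which tests the authors adjusted.

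GTT2, a glutathione transferase next to MMP1 on chromosome XII, had 85.2 FPKM in Fkh2 OE, 115 in Fkh1 OE and 153 in no OE. It was 1.79-fold lower in Fkh2 OE than in no OE, with q = 0.00116 in the authors' deposited table, where MMP1 was higher. It was named after its values were seen.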
